A study of Drosophila melanogaster with 8 samples.

Results

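Xrp1, Irbp18, crc, PPP1R15, p53 and Diap1, 6 of the 13911 protein-coding genes on the major arms of the dm6 genome, were examined for peaks of phosphorylated p38 (P-p38) in Drosophila S2 cells. The genes were listed by name as regulators of stress responses and cell death, and a peak was assigned to a gene when any part of it lay within 2 kb of the gene. The kinase p38 is a MAP kinase that stress switches on by phosphorylation, and its phosphorylated form was mapped by ChIP-seq in wild-type S2 cells, an established haemocyte-like line of embryonic origin. H2O2 cells had been exposed to 10 mM H2O2 for 30 min, and control cells had received an equal volume of culture medium. Each group had 2 immunoprecipitated libraries with 1 peak list each, and the 4 input samples of the series were not analysed here. Peak lists measure no expression, so the cell line was not checked against marker genes.

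Xrp1 and Irbp18 encode basic leucine zipper (bZIP) transcription factors of the C/EBP type that bind DNA as a heterodimer, and Xrp1 is known for its role in cell competition and in the responses to DNA damage and proteotoxic stress. crc encodes the fly ATF4, the transcription factor whose translation increases when the initiation factor eIF2α is phosphorylated in the integrated stress response, and PPP1R15, the fly GADD34, directs a phosphatase to eIF2α and so ends that response. p53 encodes the tumour suppressor homologue that drives apoptosis and repair after DNA damage, and Diap1 encodes the ubiquitin ligase that holds caspases in check.

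Control lists held 4343 and 2996 peaks and H2O2 lists 6535 and 4053 peaks in replicates 1 and 2. Read depth is unknown. Because the labels leave open whether replicates were grown apart, the permutation tests capture variation among these 4 libraries and possibly no more than technical variation. With 2 against 2 libraries, the smallest two-sided exact permutation p is 0.333, and no comparison in this design could pass 0.05. The fold enrichment is the authors' own value for each peak. It is given as a percentile, the share of peaks in the same list with an equal or lower fold, because no source used here names the background behind it. Absence of a peak means that none entered the list, whose lowest -log10 p was 2.00 to 2.01.

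Of the 41 peaks within 2 kb of the 6 genes, 14 and 8 belonged to control replicates 1 and 2 and 9 and 10 to H2O2 replicates 1 and 2. Xrp1 carried peaks in every library and 21 of the 41. Peaks within 2 kb were present in both control libraries for 4 of the 6 genes (Xrp1, crc, PPP1R15 and Diap1), a state found for 13.2% of all protein-coding genes. In both H2O2 libraries they were present for Xrp1 alone, against 9.19% of all genes. Among genes of 10 kb or more, a class that includes Xrp1 and Diap1, the shares were 22.7% in control and 24.1% in H2O2. A peak over the gene itself was found for the same 4 members in the control pair (6.92% of all genes), for Xrp1 in the H2O2 pair (5.82%) and for Xrp1 in every library (1.90%). PPP1R15 was the sole member with peaks within 2 kb in the control pair and no H2O2 peak, and 7.01% of all genes shared that state. This rested on weak peaks. The only H2O2 peaks within 2 kb of crc and Diap1 had -log10 q of 0.746 and 1.15. The PPP1R15 peak of control replicate 1 had a -log10 q of 1.21. With 1 H2O2 library standing for its group, the number of members with H2O2 peaks was 3 for replicate 2 and 2 for replicate 1. Over all 13911 genes the same rule gave 2529 genes for replicate 2 and 2071 for replicate 1. The converse, found for 3.64% of genes, held for 0 of the 6. With H2O2 replicate 2 alone standing for its group the converse held for 1 member, p53, and for 1176 of the 13911 genes. The p53 peak had a -log10 q of 0.825.

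**Figure D1:**
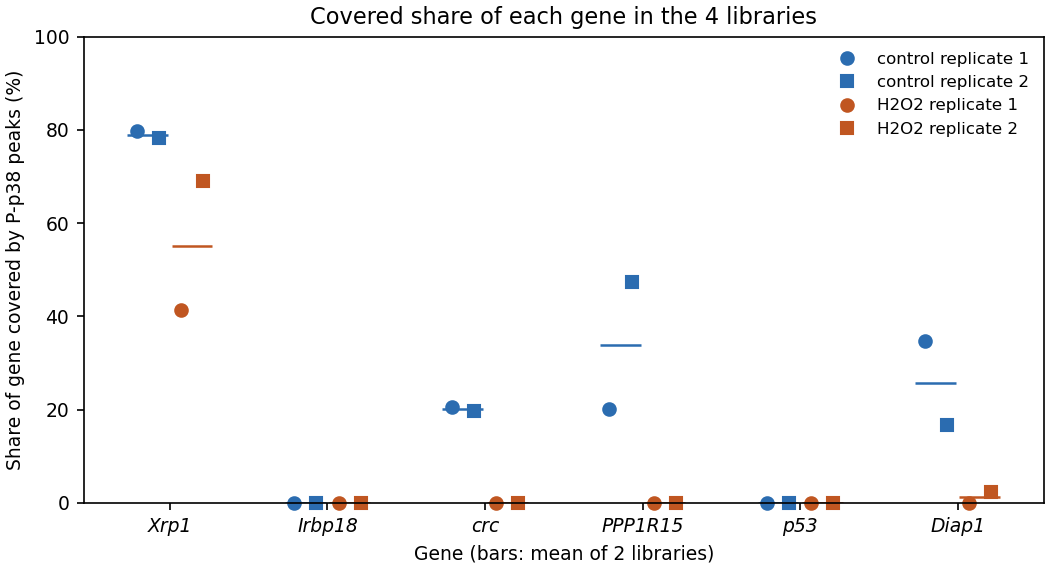
Share of each gene (vertical axis, percent of the gene interval) covered by P-p38 peaks in each of the 4 libraries, with bars at the mean of 2 libraries. Xrp1 is covered in all 4 libraries, crc, PPP1R15 and Diap1 mainly or wholly in control, and Irbp18 and p53 in none.

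Xrp1 was the member most covered by P-p38 peaks in both groups, and its cover took a different form in each. In control cells a peak of more than 9 kb ran from 3.2 kb inside the gene to past its far end. After H2O2 the same stretch was covered in part, by a row of narrower peaks with gaps between them. Xrp1 spans 12022 bp (3R 18914968 to 18926989, dm6). Positions within genes are counted from the end with the lower coordinate, since the gene table used has no strand. Peaks covered 79.7% of the gene in control replicate 1 and 78.3% in control replicate 2. In H2O2 they covered 41.3% in replicate 1 and 69.0% in replicate 2. Both H2O2 values lay below both control values, and the H2O2 libraries differed from each other by more than the better covered of them differed from control.

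The means were 79.0% ± 1.04 (SD, n = 2) in control and 55.2% ± 19.6 (SD, n = 2) in H2O2, a difference of -23.8 percentage points (exact permutation p = 0.333, and 1 after Benjamini-Hochberg adjustment over 13911 genes). Covered shares that were lower in both H2O2 libraries than in either control library were found for 4.98% of all genes, and the converse for 3.67%. The lower state requires cover in both control libraries, and 693 of the 963 genes with such cover were in it. Likewise 510 of the 810 genes with cover in both H2O2 libraries were in the converse state. The size of the difference rested on H2O2 replicate 1: without that library it was -9.96 points, and without H2O2 replicate 2 it was -37.7 points. Against all protein-coding genes Xrp1 ranked high in every list, in places 146 and 182 by covered share in control and 140 and 55 in H2O2. By covered bases its places were 36 and 10 in control and 63 and 5 in H2O2.

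The control block was 9560 bp wide in replicate 1 and 9275 bp in replicate 2. It was the widest peak of the whole list in control replicate 2 and the 9th widest in control replicate 1. The widest Xrp1 peak measured 1827 bp in H2O2 replicate 1 and 2264 bp in H2O2 replicate 2, in places 58 and 30 of their lists. Control and H2O2 widths did not overlap, at 9417.5 ± 202 bp and 2045.5 ± 309 bp (mean ± SD, n = 2 each), a ratio of 0.217 (exact permutation p = 0.333). Instead of 3 and 2 peaks over the gene in control replicates 1 and 2, there were 7 and 8 in H2O2 replicates 1 and 2 (exact permutation p = 0.333). The H2O2 lists as a whole held fewer wide peaks, with 3.01% and 2.59% of peaks wider than 1000 bp against 11.2% and 12.3% in control, and the part of this in the Xrp1 widths was not tested. Of the 264 genes with a peak over them in all 4 libraries, 25.4% had a narrower widest peak in both H2O2 libraries and 22.0% had more peaks in both. Both together held for 4 genes, or 1.52%, namely Xrp1, the profilin gene chic, the proton pump gene Vha16-1 and the ribosomal protein gene RpL3. This pairing was not planned and follows the form seen at Xrp1, so its share is a description only.

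**Figure D2:**
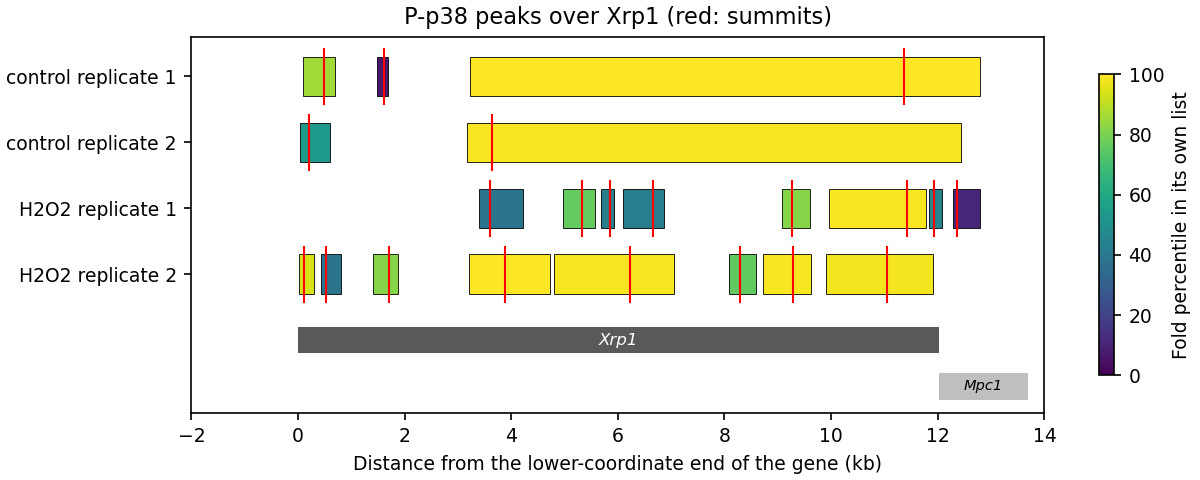
Peaks over Xrp1 by library along the distance from the lower-coordinate end of the gene (kb), coloured by fold percentile within the library's own list, with summits in red and gene intervals as grey bars. The control peaks of 9560 and 9275 bp stand over a stretch that carries several narrower peaks in each H2O2 library.

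The strongest Xrp1 peak stood near the top of every list. Its fold percentile was 99.9 and 98.6 in control replicates 1 and 2 and 98.9 and 99.3 in H2O2 replicates 1 and 2, values that overlapped (difference of the means -0.146, exact permutation p = 1). The authors' fold enrichment at these peaks was 4.33 and 4.14 in control and 2.37 and 3.10 in H2O2, which are not compared as levels. The other H2O2 peaks ranged widely. In H2O2 replicate 1 the lowest peak over the gene stood at percentile 38.4, and in H2O2 replicate 2 the lowest stood at 38.7 while 4 of the 8 stood at or above 98.4.

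The parts of Xrp1 that were covered recurred between libraries. The 2 control libraries shared 9283 bp of the gene, a Jaccard index of 0.956, and the 2 H2O2 libraries shared 4849 bp, an index of 0.576. All 4965 bp covered in H2O2 replicate 1 lay within the cover of both control libraries. Of the gene, 40.3% was covered in all 4 libraries, 13.7% in the control pair and neither H2O2 library, and 0% in the converse. The widest contrast between the groups was between 7000 and 8000 bp from the lower end, where cover was 100% in both control libraries, 0% in H2O2 replicate 1 and 5.7% in H2O2 replicate 2. Between 10000 and 11000 bp cover was 100% in all 4 libraries.

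Some summits of different libraries lay close together. The distances of 57, 49 and 22 bp given here are the smallest among all pairs of summits of the 2 libraries compared. The H2O2 libraries had 7 and 8 peaks over the gene, and whether such distances are shorter than this density gives was not tested. The summit of the control block lay at 11358 bp in replicate 1, where H2O2 replicate 1 had its strongest summit 57 bp away at 11415 bp. In control replicate 2 it lay at 3644 bp, and H2O2 replicate 1 had a summit 49 bp away at 3595 bp. The strongest H2O2 replicate 2 summit was close by at 3887 bp. The H2O2 libraries themselves came within 22 bp of each other, at 9262 and 9284 bp. The block summits of the 2 control libraries thus stood near opposite ends of the same block.

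At the lower-coordinate end, the first kilobase of Xrp1 carried separate, narrower peaks in 3 of the 4 libraries. Cover of these 1000 bp was 58.6% and 55.6% in control replicates 1 and 2, 0% in H2O2 replicate 1 and 64.4% in H2O2 replicate 2. H2O2 replicate 2 had a 278 bp peak there at percentile 93.9 and a 366 bp peak at 38.7. Control replicate 1 had a 586 bp peak at 86.3 and control replicate 2 a 556 bp peak at 53.7. The groups overlapped in this segment. At the other end both control blocks and a 240 bp peak of H2O2 replicate 1 ran into Mpc1, the mitochondrial pyruvate carrier gene next to Xrp1. That part cannot be assigned to either gene. A further 504 bp peak of H2O2 replicate 1 lay 259 bp beyond Xrp1 and overlapped Mpc1 but not Xrp1. It is counted among the 21 peaks within 2 kb of Xrp1.

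Irbp18, whose product is the heterodimer partner of Xrp1, had no peak. The gene is 741 bp long (3L 11097446 to 11098186) and lies within the interval of CG33947. Neither its body nor the 2 kb on each side held a peak in any of the 4 libraries. No peak within 2 kb in any library was the most common state among all protein-coding genes, at 57.3%.

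crc carried P-p38 peaks in control cells at both ends of the gene and none over the gene after H2O2. The gene spans 8662 bp (2L 21310866 to 21319527). Its covered share was 20.6% and 19.7% in control replicates 1 and 2 and 0% in both H2O2 libraries. The groups did not overlap, with 20.1% ± 0.669 (SD, n = 2) in control and a difference of -20.1 points (exact permutation p = 0.333). Of all genes 4.98% were lower in both H2O2 libraries, which made up 693 of the 963 genes covered in both control libraries. At q of 1e-05 or less the difference was -12.2 points.

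The lower-end peak of crc had the closest pair of summits among the members. It was 1077 bp wide in control replicate 1 and 1068 bp in control replicate 2, and its summits, at 212 and 214 bp from the lower end, lay 2 bp apart. Its fold percentile was 85.1 in control replicate 1 and 94.6 in control replicate 2. The -log10 p of the authors was 11.2 and 36.6. The second peak, near the upper end, was 709 bp wide at percentile 32.2 in replicate 1 and 668 bp wide at 18.8 in replicate 2, with summits at 7968 and 8194 bp. That stretch also belongs to CG46314, which overlaps crc, so this peak cannot be assigned to either gene. Over the gene as a whole the control libraries shared 1271 bp, a Jaccard index of 0.573.

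Beyond the upper end, control replicate 1 had further peaks 471 and 1615 bp from crc, and H2O2 replicate 1 had a peak of 331 bp at a distance of 985 bp. This peak, at percentile 2.37, was the sole H2O2 peak within 2 kb of crc. H2O2 replicate 2 had none.

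PPP1R15 had a peak in each control library, but at different places. The gene is 1657 bp long (2R 23975599 to 23977255). Cover was 20.2% in control replicate 1, 47.4% in control replicate 2 and 0% in both H2O2 libraries. The groups did not overlap, and 4.98% of all genes were likewise lower in both H2O2 libraries. The mean was 33.8% ± 19.2 (SD, n = 2) in control, a difference of -33.8 points (exact permutation p = 0.333), which was -20.2 points without control replicate 2. The control replicate 1 peak was 334 bp wide with its summit at 448 bp and stood at percentile 4.97. The control replicate 2 peak was 785 bp wide with its summit at 1282 bp and stood at percentile 54.0. The peaks shared 0 bp and their summits lay 834 bp apart, so no position in PPP1R15 was repeated between libraries. At q of 1e-05 or less neither peak was left.

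**Figure D3:**
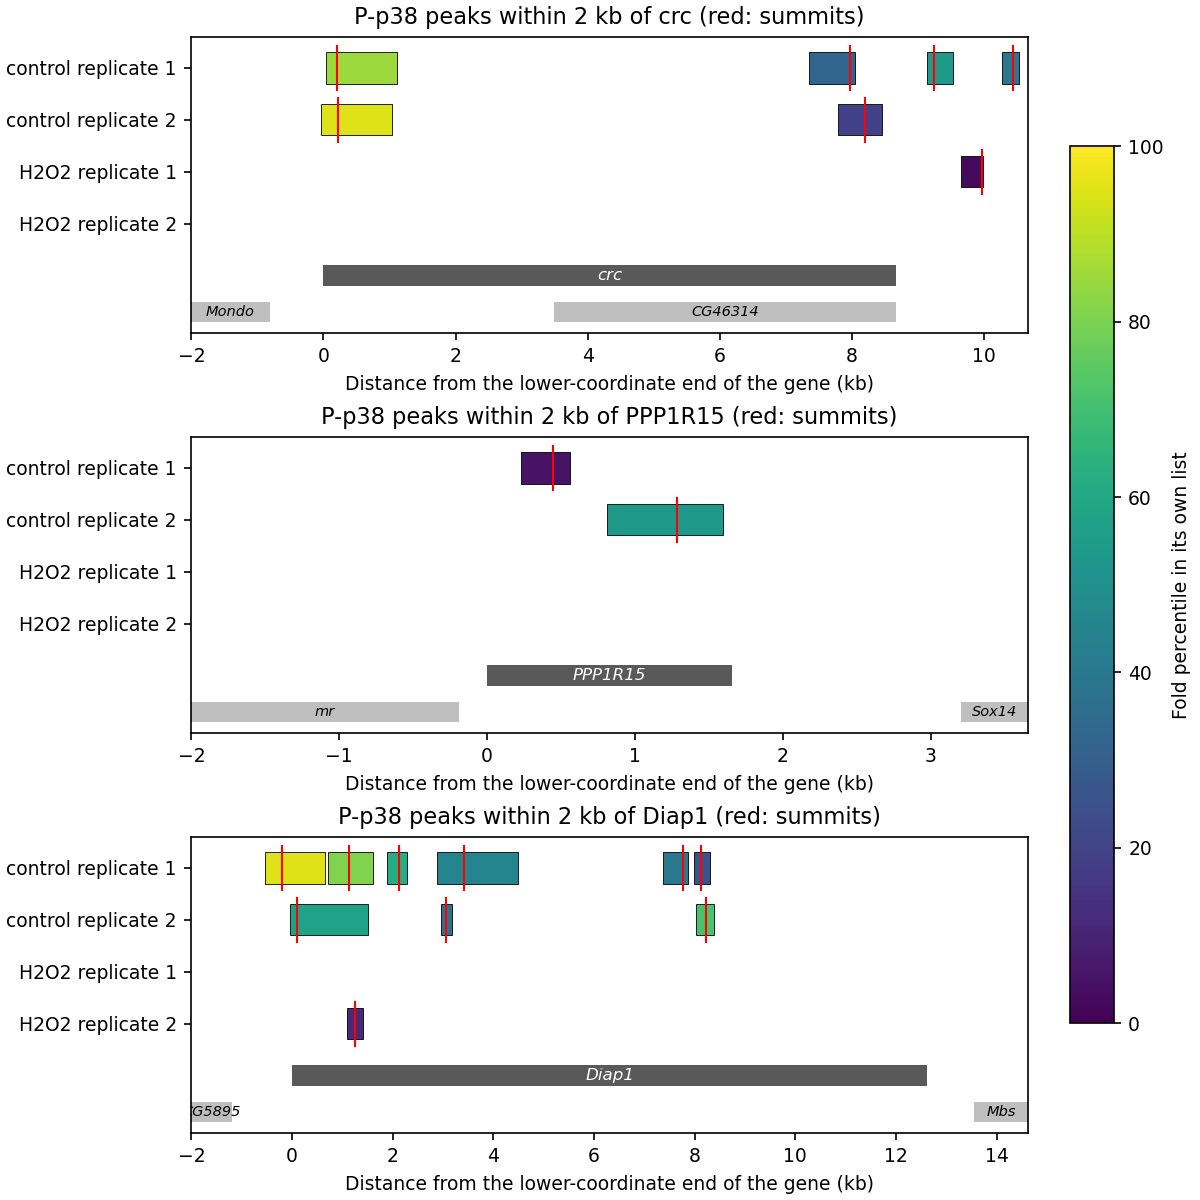
Peaks within 2 kb of crc, PPP1R15 and Diap1 by library along the distance from the lower-coordinate end of each gene (kb), coloured by fold percentile, with summits in red and gene intervals as grey bars. Control libraries hold the peaks over the genes, apart from a 303 bp peak of H2O2 replicate 2 over Diap1, and the crc peaks at the lower end have summits 2 bp apart.

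p53 had no peak over its body in any library. The gene spans 4426 bp (3R 23049657 to 23054082). H2O2 replicate 2 had a peak of 268 bp at a distance of 1497 bp, at percentile 13.0, whose summit lay in Ctns and in the antisense gene asRNA:CR46089. No other library had a peak within 2 kb. This peak and the crc peak at 1615 bp were the outermost inside the limit of 2 kb. The nearest outside it were a peak of H2O2 replicate 2 in Sgsh at 3395 bp from Xrp1, at percentile 92.6, and a peak of control replicate 2 in CG3065 at 4411 bp from PPP1R15, at 7.08.

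Diap1 was covered by several peaks in each control library, most densely at its lower-coordinate end, and by at most a single narrow peak after H2O2. The gene spans 12625 bp (3L 16038410 to 16051034). Its covered share was 34.7% in control replicate 1 and 16.6% in control replicate 2, against 0% in H2O2 replicate 1 and 2.4% in H2O2 replicate 2. The groups did not overlap, although the control libraries stood far apart. The means were 25.7% ± 12.8 and 1.2% ± 1.70 (SD, n = 2 each), a difference of -24.5 points (exact permutation p = 0.333). Among genes of 10 kb or more, 9.28% were lower in both H2O2 libraries. The difference was -15.4 points without control replicate 1 and -7.63 points at q of 1e-05 or less.

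The first kilobase of Diap1 was covered over 94.9% and 100% in control replicates 1 and 2 and over 0% in both H2O2 libraries. There, control replicate 1 had a peak of 1206 bp that began 541 bp before the gene, with its summit 197 bp outside it and a fold percentile of 94.7. Control replicate 2 had a peak of 1568 bp with its summit at 100 bp and a percentile of 57.7. The repeated cover went on inside the gene. Both control libraries had a peak near 3 kb, with summits at 3410 and 3053 bp, and a peak near 8 kb, whose summits at 8124 and 8220 bp were the closest pair at 96 bp. The peak near 8 kb was the strongest of control replicate 2 over Diap1 (percentile 71.1) and the weakest of control replicate 1 (25.1).

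The H2O2 replicate 2 peak over Diap1 was 303 bp wide with its summit at 1257 bp and stood at percentile 11.3. It lay wholly within the cover of both control libraries. Of the 4386 bp covered in control replicate 1, 44.9% was covered in control replicate 2, and of the 2101 bp in the latter 93.7% was covered in the former. No peak in any library lay beyond 8380 bp from the lower end, within the gene or the 2 kb that follow.

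**Figure D4:**
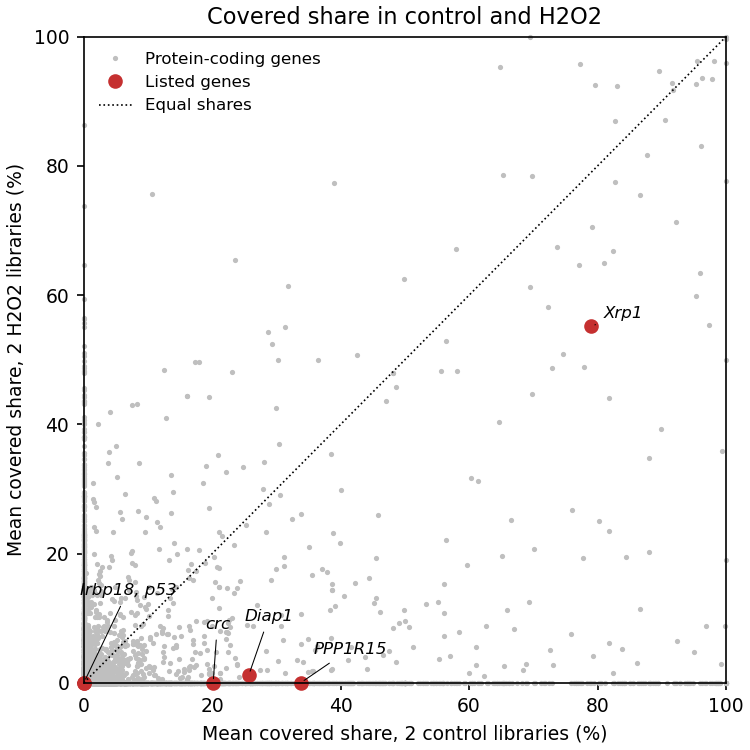
Mean covered share of every protein-coding gene in the 2 control libraries (horizontal axis, percent) and the 2 H2O2 libraries (vertical axis, percent), with the 6 listed genes in red and a dotted line where both are equal. Xrp1 lies at 79.0% and 55.2%, crc, PPP1R15 and Diap1 lie along the horizontal axis, and Irbp18 and p53 lie at 0.

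Ordered by mean control cover, Xrp1 (79.0%) stood above PPP1R15 (33.8%), Diap1 (25.7%) and crc (20.1%), with Irbp18 and p53 at 0%. The values of PPP1R15, Diap1 and crc overlapped between libraries, so their order was not beyond the spread. In H2O2 Xrp1 (55.2%) stood above all others in both libraries, and Diap1 at 1.2% was the only other gene with cover. Cover of at least 50% in both control libraries was found for Xrp1 alone among the 6, against 1.16% of all genes. In both H2O2 libraries it was found for 0 of the 6 and for 0.273% of all genes.

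In the wider integrated stress response list, 5 of 17 matched genes (29.4%) had a peak within 2 kb in the control pair and 2 (11.8%) in the H2O2 pair, against 13.2% and 9.19% of all genes. The difference between the list and other genes was not tested, here or for the lists that follow. The 5 were the eIF2α kinase gene PEK, eIF2gamma, the translational repressor gene Thor, the unfolded protein response factor Xbp1 and the tribbles gene trbl, and the 2 were Thor and the asparagine synthetase gene AsnS. Peaks covered 94.8% and 84.4% of Thor in the control libraries and 90.4% and 99.0% in the H2O2 libraries, so its groups overlapped. Xbp1 was covered over 98.9% and 100% in control, 0% in H2O2 replicate 1 and 71.8% in H2O2 replicate 2. For AsnS the control libraries gave 0% and 57.3%, and the H2O2 libraries 12.6% and 96.0%. For trbl the control libraries gave 42.1% and 15.0%, and the H2O2 libraries 0% and 4.0%. Lower cover in both H2O2 libraries, without overlap, held for eIF2gamma, Xbp1 and trbl (17.6%, against 4.98% of all genes), and the converse for 0 genes (3.67% of all genes). The list's median covered share was 1.66% in control and 0% in H2O2. The medians over all genes were 0% in both groups and offer no comparison, since 3733 of the 13911 genes had any cover.

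Of 23 cell death genes, 3 (13.0%, against 13.2% of all genes) had a peak within 2 kb in both control libraries, namely the effector caspase genes Drice and Dcp-1 and the TNF receptor gene wgn. In the H2O2 pair it was 1 (4.35%, against 9.19%), hid, whose product is an antagonist of Diap1. No library had a peak within 2 kb of 9 of the 23 genes (39.1%, against 57.3%). Drice was covered over 25.4% and 41.6% in control and 0% in both H2O2 libraries, the only gene of this list whose groups did not overlap (4.35%, against 4.98% of all genes that were lower in both H2O2 libraries). The strongest peak over Drice stood low in its list, at percentile 2.35 in control replicate 1 and 11.4 in control replicate 2. H2O2 replicate 1 had 1 peak within 2 kb of Drice. For hid the control libraries gave 0% and 4.67%, and the H2O2 libraries 1.26% and 1.58%. The initiator caspase gene Dronc was covered over 14.5% in control replicate 1 and 0% in the other libraries. The mitochondrial factor gene AIF was covered over 14.5% in control replicate 2 and the caspase gene Damm over 11.0% in H2O2 replicate 1, each with 0% elsewhere. The pro-apoptotic genes rpr, grim and skl, which lie in the same genomic region as hid, were at 0% in every library.

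Among 11 genes of the p53 and DNA damage list, 3 had a peak within 2 kb in both control libraries (the ATM kinase gene tefu, the fly Ku70 gene Irbp and the replication clamp gene PCNA) and tefu alone did in both H2O2 libraries. These shares were 27.3% and 9.09%, against 13.2% and 9.19% of all genes. PCNA was covered over 62.2% and 94.4% in control and 0% in both H2O2 libraries, and was the 1 gene of the list lower in both H2O2 libraries without overlap (9.09%, against 4.98% of all genes). The ribonucleotide reductase gene RnrL was covered over 12.2% in control replicate 2 and 0% elsewhere. The other 9 genes of this list, the kinase genes lok and mei-41 among them, were at 0% in every library.

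Of 17 other bZIP factor genes, 8 (47.1%, against 13.2% of all genes) had a peak within 2 kb in the control pair. In the H2O2 pair 2 did (11.8%, against 9.19%), kay, the fly Fos, and cnc, the fly Nrf2. Jra, the fly Jun, was covered over 75.1% and 50.4% in control and 0% in both H2O2 libraries. Its highest fold percentile was 98.6 in control replicate 1 and 6.71 in control replicate 2. For kay the control libraries gave 40.7% and 14.9% and the H2O2 libraries 30.9% and 29.1%, values that overlapped. Atf-2, itself a known p38 substrate, was covered over 18.5% in control replicate 1 and 18.1% in H2O2 replicate 2 and over 0% in the other libraries. Lower cover in both H2O2 libraries without overlap held for 5 of the 17 (cnc, Jra, REPTOR, Pdp1 and Xbp1), or 29.4% against 4.98% of all genes, and the converse for 0 (3.67% of all genes). Several genes of the list, among them cnc, REPTOR and Pdp1, are longer than 10 kb. In genes of 10 kb or more, 22.7% had control-pair peaks, 24.1% had H2O2-pair peaks and 9.28% were lower in H2O2. Control cover was 1.27% and 1.93% for REPTOR and 0.773% and 0.685% for Pdp1, against 0% in H2O2. Xbp1 belongs to this list and to the stress response list.

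Genes with patterns like those of the members were sought over 8 values, the covered share and the highest fold percentile in the 4 libraries. Nearest to Xrp1 were the elongation factor gene eEF1alpha1 (Euclidean distance 23.2), the amino acid transporter subunit gene CD98hc (23.6) and the BiP chaperone gene Hsc70-3 (26.7). Peaks covered 76.6% and 72.8% of CD98hc in the control libraries and 38.5% and 63.2% in the H2O2 libraries. Nearest to crc were CG8908 (6.37), CG32095 (8.61) and CG14411 (8.70), all with no peak over them in H2O2. Nearest to Diap1 were the G protein regulator gene loco (13.8), CG7650 (13.9) and the actin regulator gene ena (17.1). Nearest to PPP1R15 were the ESCRT-III gene Chmp1 (18.4), mri (20.8) and the RNA-binding protein gene lark (21.0). Unlike PPP1R15, mri and lark had 0% cover in control replicate 1. A percentile missing for want of a peak entered the distance as 0.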

How the data were processed

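P-p38 ChIP-seq peaks of 4 immunoprecipitated S2 libraries were compared as intervals. The tools Picard and MACS2 and the build dm6 are named in the submitters' processing notes; no source used here gives versions, options or the background library. Each deposited list holds the authors' peak intervals, summits and a score, which was checked to be 10 times the -log10 p-value cut to a whole number for all but 1 peak (6534 of 6535 in H2O2 replicate 1). Its fold column, as deposited, is a linear ratio of enrichment over the peak caller's background, and its p-value and q-value columns are -log10 values. Peaks were called per library. Read depth is unknown.

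Gene intervals came from the RefSeq table of Release 6, matched by symbol or synonym; 1 pathway symbol (Gcn1) was not matched. For 13911 genes, covered share, peaks within 2000 bp, widest peak and highest fold percentile were computed (Python 3.11.15, numpy 2.4.6, pandas 2.3.3), and covered shares were compared by two-sided exact permutation over 6 arrangements. In a test on simulated data, known covered shares were recovered for 200 of 200 genes. No adjusted or unadjusted p was under 0.05 (0 and 0 genes).

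Members and lists were chosen with earlier results of these data known. All 6 members are named, as are up to 4 genes per list with the highest mean cover, all called genes in counts of 5 or fewer, and the 3 genes of at least 1000 bp, over 10 kb away, nearest in pattern; rpr, grim, skl, hid, cnc, kay, lok and mei-41 were named after their values were seen where the rule did not take them. Genes of 10 kb or more and 1 kb segments were added after the data were seen. The number of peaks over a gene and its pairing with the widest peak were not planned either. The promoter motif search that was planned was not run, since no sequence was used here, and summits are placed from the lower-coordinate gene end. The alternatives tried were peaks with q of 1e-05 or less, lists cut to equal length (2996 peaks of highest fold), other distances and windows, percentiles of the -log10 p, each library left out in turn, a replicate block, and, added later, peaks joined across gaps of 500 or 1000 bp.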

Additional observations from a re-analysis of the deposited data

How the results depend on the processing

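The covered share of Xrp1, crc and Diap1 stayed lower in H2O2 in every alternative tried, and that of PPP1R15 in all but a q of 1e-05 or less, where its difference was 0 because no peak over it was left; with lists of equal length control replicate 1 lost its PPP1R15 peak and the groups overlapped. For p53 a window of 2000 bp on each side gave 1.59 percentage points more in H2O2 through the peak in Ctns. The difference in the highest fold percentile of Xrp1 had no stable sign: it was 0.184 by percentiles of the -log10 p, -6.90 at q of 1e-05 or less, and -0.778 to 0.486 with each library left out. Members with control peaks in both replicates and no H2O2 peak numbered 2 when lists were cut to equal length or to q of 1e-05 or less (crc and Diap1, against 6.69% and 3.69% of all genes). At distances of 0 and 500 bp they numbered 2 (crc and PPP1R15, against 3.62% and 4.80% of all genes). With each library left out they numbered 1 to 2, against 1074 to 1963 of the 13911 genes. With 1 library standing for its group, members with H2O2 peaks numbered 1 to 3, against 1279 to 2529 of all genes. H2O2-only members then numbered 0 to 1, against 605 to 1176 of all genes. With gaps of up to 500 or 1000 bp joined, a setting chosen after seeing the data, the widest Xrp1 stretch still differed by -5646 bp (3771.5 in H2O2 against 9417.5 bp in control, mean of 2 libraries). In windows of 500 bp on each side of both gene ends the differences were larger for Xrp1 (-32.7 points), crc (-32.9) and Diap1 (-38.7) and smaller for PPP1R15 (-17.8). For Xrp1 the upper window takes in cover over Mpc1, which cannot be assigned to either gene. No label says that libraries of the same replicate number belong together, although the peak names carry the number 3 in replicate 1 and 2 in replicate 2 of both groups, whose meaning is not stated; across 3733 genes with cover the replicate differences of the groups had r = 0.0606; with the replicate block the Xrp1 difference was again -23.8 points, with an exact permutation p of 0.5, the smallest that 2 pairs allow. The unknown depth limits what the absence of a peak can say.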

Other observations

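Peaks of 5000 bp or more over a gene in both control libraries were found at 5 protein-coding genes, which share 3 loci. At Xrp1 and its neighbour Mpc1 they were the block of 9560 and 9275 bp. CtsL1, which encodes a cathepsin L protease, and CG42806 in the same interval lay under a peak of 7719 and 7455 bp in control replicates 1 and 2, and CG33229 lay under 5584 and 5301 bp. No peak of H2O2 replicate 2 was wider than 4792 bp anywhere, so a like width in both H2O2 libraries could not occur. The loci differed in what the H2O2 lists held instead. Peaks covered 100% and 99.6% of CtsL1 in the control libraries and 3.41% and 14.1% in the H2O2 libraries. For CG33229 the control libraries gave 84.3% and 91.1% and the H2O2 libraries 77.3% and 86.0%, and Xrp1 lay between these loci. CG42806 had no H2O2 peak. They were picked with their values in view, and no difference between the loci was tested.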
